A study of Mus musculus with 2 samples.

Results

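Red blood cells, white blood cells and microglia each carry a small number of characteristic microRNAs, and 6 hairpin genes of that kind were followed here in the forebrain of newborn mice. They were chosen by name from the 1973 hairpin genes of the deposited tables, and all 6 had a row. Mir451a and Mir144 stand for the erythroid lineage. Mir142b, Mir150, Mir223 and Mir155 stand for leukocytes and microglia. The samples were whole forebrains of mice of strain B6NCrl on postnatal day 0, with no treatment or engineered allele in the labels. They form 1 group of 2 biological replicates, pup 3 and pup 1, each a forebrain from a single animal whose sex was not collected. The labels give the same donor record for both and do not say whether blood was washed out of the vessels. Ratios below are of pup 3 over pup 1, so each rests on 1 library a side and compares these libraries, not conditions.

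A microRNA is cut from a hairpin transcript, loaded into an Argonaute protein and guides it to messenger RNAs that pair with its seed, the stretch from base 2 to base 8. Mir144 and Mir451a are made from a common erythroid transcript that GATA1 activates, and red cells keep large amounts of miR-451a. Mir142 is active in nearly all blood lineages and in microglia, the macrophages of the brain, which enter it before birth. Mir150 is a microRNA of mature lymphocytes that restrains Myb, Mir223 is one of granulocytes and other myeloid cells, and Mir155 rises when lymphocytes or macrophages are activated.

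Mature sequences of these hairpins, from RefSeq on GRCm38.p6, show small RNAs that the counts can hold. Capitals mark the seed. RefSeq mature entries were matched for all 6 genes and hairpin entries for 5. For Mir150 only miR-150-3p was matched. Its count can also hold the other arm, which is not listed and whose seed was not compared. The products of Mir142 are given beside the product of Mir142b because of where the reads lay.
mmu-miR-451a: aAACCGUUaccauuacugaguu
mmu-miR-144-5p: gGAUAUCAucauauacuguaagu
mmu-miR-144-3p: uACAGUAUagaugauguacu
mmu-miR-142a-5p: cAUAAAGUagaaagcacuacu
mmu-miR-142a-3p: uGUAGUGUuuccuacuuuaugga
mmu-miR-142b: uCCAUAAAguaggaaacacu
mmu-miR-150-3p: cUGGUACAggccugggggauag
mmu-miR-223-5p: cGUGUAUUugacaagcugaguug
mmu-miR-223-3p: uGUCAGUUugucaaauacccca
mmu-miR-155-5p: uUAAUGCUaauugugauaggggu
mmu-miR-155-3p: cUCCUACCuguuagcauuaac
None of these seeds was shared with another of them or with any other of the 1738 mature sequences in the table, so each forms a seed group of its own. None of the sequences occurred in another RefSeq hairpin. In a search of 1894 annotated hairpins, none of the 6 member hairpins had a stretch of 20 or more nucleotides, on either strand, in common with a hairpin at another place. Reads with several mapping places were left out of the deposited counts, and this search covered annotated hairpins and not the genome.

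Mir144 and Mir451a lie side by side on the plus strand of chromosome 11. Mir144 (ENSMUSG00000065401.1) occupies chr11:78073005-78073070 and Mir451a (ENSMUSG00000070065.1) occupies chr11:78073170-78073241 on GRCm38, with 99 nucleotides between them. On its minus strand the annotation places Mir451b over the same bases as Mir451a, and it gives no other gene over either hairpin. Both hairpins are printed because miR-451a has an unusual place in its precursor, with the mature sequences in capitals.
Mir144 hairpin: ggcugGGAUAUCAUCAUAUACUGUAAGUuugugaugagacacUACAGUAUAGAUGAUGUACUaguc
Mir451a hairpin: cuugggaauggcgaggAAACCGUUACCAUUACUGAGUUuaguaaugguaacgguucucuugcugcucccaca
In the structure predicted by RNAfold, the terminal loop of Mir451a had 4 nucleotides and all 4 belonged to miR-451a, whose other bases run down the 5′ side of the stem. The other mature sequences had no base in the predicted loop of their hairpin; Mir150 was not folded. Of 950 RefSeq hairpins predicted to have a single terminal loop, 2 had a mature sequence over the whole loop, Mir451a and Mir468. As background, miR-451a is known to be cut by Argonaute 2 itself without Dicer. The predicted free energy of the Mir451a hairpin was -43.3 kcal/mol over 72 nucleotides, against -28.6 kcal/mol over 66 nucleotides for Mir144. Per nucleotide it was -0.601 for Mir451a and -0.433 for Mir144, beside a median of -0.406 over 1005 RefSeq hairpins.

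The Mir142 locus lies further along chromosome 11. Mir142b (ENSMUSG00000065420.2) is annotated on the minus strand at chr11:87756841-87756955, and Mir142 lies inside these bases on the plus strand, at chr11:87756864-87756927, in an intron of the noncoding gene Mir142hg. All 20 bases of miR-142b lie opposite to bases of miR-142a-3p, which is why the strand decides what was counted.
Mir142 hairpin, plus strand, mature sequences in capitals: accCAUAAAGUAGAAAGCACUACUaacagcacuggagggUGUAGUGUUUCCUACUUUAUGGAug
Mir150 (ENSMUSG00000065495.1) lies at chr7:45121757-45121821 on the plus strand, with no other annotated gene over it. Mir223 (ENSMUSG00000076066.1) lies at chrX:96242817-96242926 on the plus strand and overlaps an exon of the noncoding gene F630028O10Rik. Mir155 (ENSMUSG00000065397.1) lies at chr16:84714140-84714204 on the plus strand and overlaps an exon of its noncoding host gene Mir155hg.

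**Figure D1:**
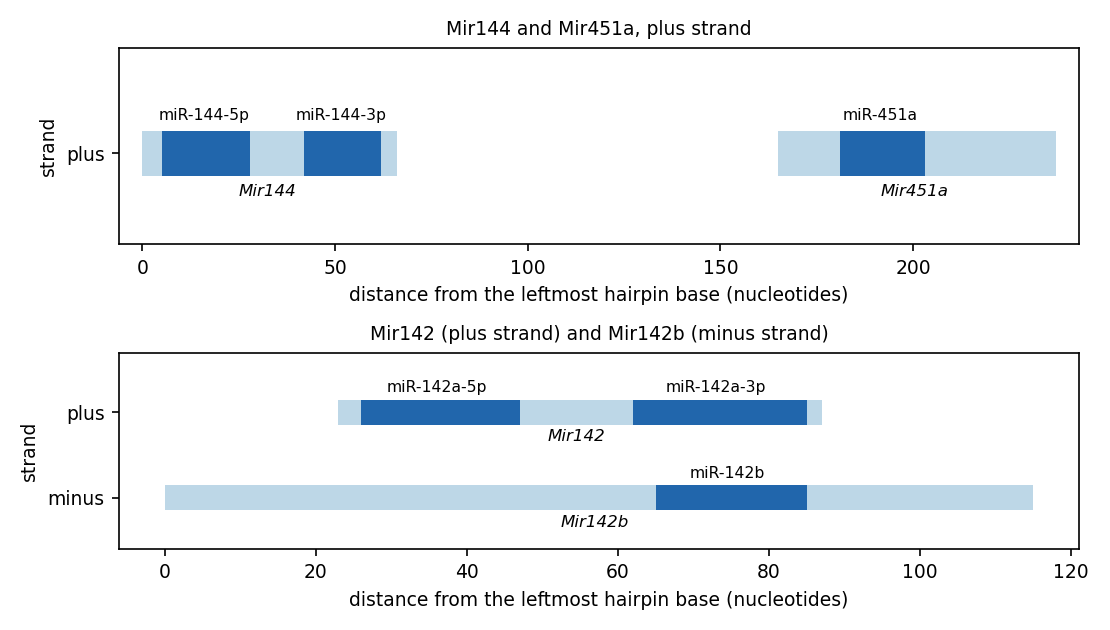
Maps of the Mir144 and Mir451a hairpins and of the Mir142 and Mir142b hairpins, with distance from the leftmost hairpin base in nucleotides on the x axis and the strand on the y axis; pale bars are RefSeq hairpins and dark bars mature microRNAs. Mir144 and Mir451a are 99 nucleotides apart on the plus strand, and miR-142b lies wholly opposite to miR-142a-3p.

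The libraries held 18798326 reads in pup 3, of which 7678662 (40.8%) were assigned to a hairpin gene, and 22470992 reads in pup 1, of which 9037087 (40.2%) were assigned. Levels are given as CPM, a gene's reads per 1000000 assigned reads of its library. Each read is a whole small RNA, so CPM was not divided by hairpin length except where said, and reads of both arms of a hairpin are pooled. The neural microRNA Mir137 stood at 33595 CPM in pup 3 and 24345 CPM in pup 1, and 6 of 10 hairpins of the neural check list reached a mean of 10 CPM, Mir128-1 with 6733 CPM in pup 3 and 5104 CPM in pup 1 among them. The hairpins at a mean under 10 CPM were the 3 Mir124a genes and Mir9-2. Of the 10, all but Mir137 have such a shared stretch, Mir128-1 included, so their counts are uncertain.

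All 6 blood-cell hairpins were found in both forebrains at low to middling levels. Together they held 8658 reads in pup 3, or 0.113% of the assigned reads (95% Wilson interval 0.110 to 0.115), and 7729 reads in pup 1, or 0.0855% (0.0836 to 0.0875). The mean of the pups was 0.0991% ± 0.0193 (SD, n = 2). The erythroid hairpins Mir451a and Mir144 held 0.0370% in pup 3 and 0.0228% in pup 1, and the leukocyte and microglial hairpins held 0.0758% in pup 3 and 0.0627% in pup 1. In whole tissue, fewer cells of a type and less RNA per cell cannot be told apart. Intervals cover counting error only, and the labels name no molecular identifiers.

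Of the erythroid hairpins, Mir451a was the more frequent and its neighbour Mir144 was the scarcest of the 6. Mir451a had 2689 reads and 350 CPM in pup 3, against 1735 reads and 192 CPM in pup 1. Its 95% Wilson intervals, 337 to 364 CPM in pup 3 and 183 to 201 CPM in pup 1, did not overlap. Mir144 had 152 reads and 19.8 CPM in pup 3, against 328 reads and 36.3 CPM in pup 1. Its intervals, 16.9 to 23.2 CPM in pup 3 and 32.6 to 40.4 CPM in pup 1, also lay apart, in the opposite order. Over the pups, Mir451a averaged 271 ± 112 CPM and Mir144 28.0 ± 11.7 CPM (SD, n = 2 each), an SD of about 41.3% and 41.6% of the mean.

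Of the leukocyte and microglial hairpins, the reads counted at Mir142b were the most frequent. Mir142b had 2607 reads and 340 CPM in pup 3, against 2246 reads and 249 CPM in pup 1. Mir150, the lymphocyte microRNA, had 1685 reads and 219 CPM in pup 3, against 1881 reads and 208 CPM in pup 1. The myeloid Mir223 had 1103 reads and 144 CPM in pup 3, against 1067 reads and 118 CPM in pup 1. Each of these 3 had a higher CPM in pup 3, by little for Mir150, whose Wilson intervals of 209 to 230 CPM in pup 3 and 199 to 218 CPM in pup 1 overlapped. Mir155, linked to activated leukocytes, had 422 reads and 55.0 CPM in pup 3, against 472 reads and 52.2 CPM in pup 1, and its intervals of 49.96 to 60.5 CPM in pup 3 and 47.7 to 57.2 CPM in pup 1 overlapped as well. Mir150 and Mir155 were the steadiest members, with an SD of 3.74% and 3.60% of the mean, while that of Mir223 was 13.8% and that of Mir142b 21.9%.

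The order of the mean levels was Mir142b, Mir451a, Mir150, Mir223, Mir155 and Mir144. Mir142b at 294 ± 64.3 CPM and Mir451a at 271 ± 112 CPM did not differ beyond their spread, and Mir451a was the higher of them in pup 3 and the lower in pup 1. Mir451a and Mir150, at 214 ± 7.99 CPM, also overlapped, and Mir150 was the higher of them in pup 1. The other neighbours did not overlap between pups: Mir150 was 1.63 times Mir223 on the mean, Mir223 at 131 ± 18.1 CPM was 2.44 times Mir155, and Mir155 at 53.6 ± 1.93 CPM was 1.91 times Mir144 (SD, n = 2 each). Divided by the length of the named hairpin, Mir451a had 3.77 CPM per nucleotide, Mir150 had 3.29 and Mir142b 2.56. The places of the other 3 did not change. For Mir142b this used the 115 nucleotides of its own hairpin, while its reads lay on the strand of Mir142, whose hairpin has 64. With that shorter length it would stand above Mir451a, whose mean level was lower and whose hairpin, at 72 nucleotides, is longer. Its place per nucleotide thus depends on the length used. Among all 1973 genes, Mir451a took rank 147 in pup 3 and rank 188 in pup 1, and Mir142b rank 150 in pup 3 and rank 177 in pup 1. Mir144 took rank 280 in pup 3 and rank 272 in pup 1. Of the 1973 genes, 1198 had no read in either pup and 310 reached a mean of 10 CPM.

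**Figure D2:**
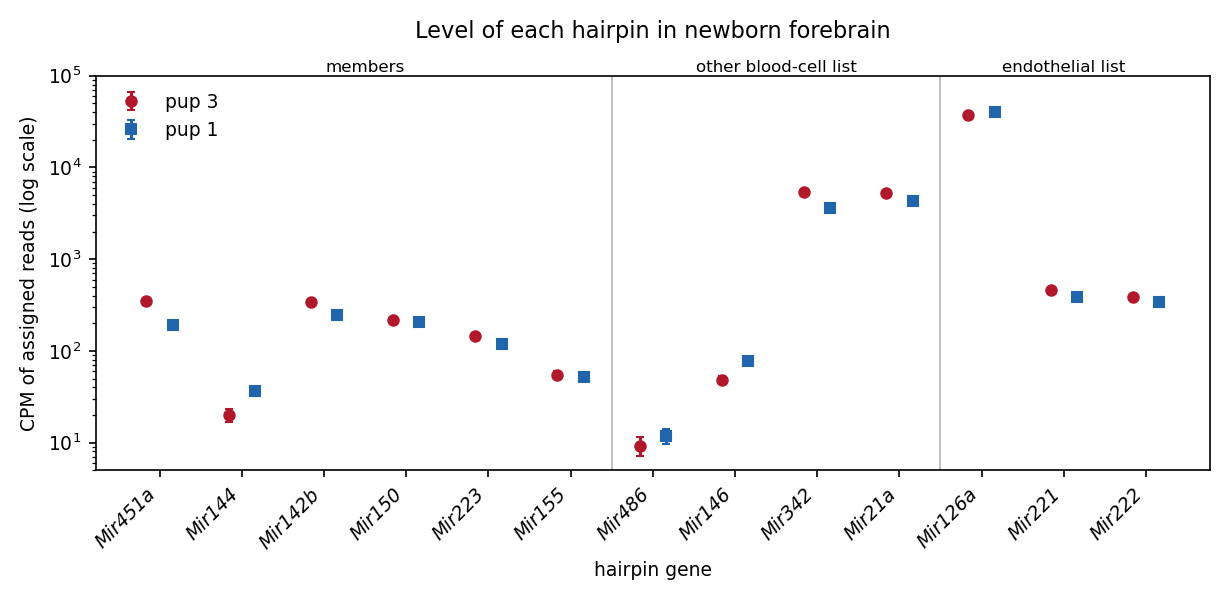
CPM of assigned reads on a log scale for the 6 members, for the genes of the other blood-cell list whose mean reached 10 CPM and for the endothelial list, with pup 3 as circles and pup 1 as squares; bars are 95% Wilson intervals, often smaller than the symbols. The members lie between 19.8 and 350 CPM. Mir144, Mir146, Mir486 and Mir126a stand lower in pup 3 and the others higher, with overlapping intervals for Mir486, Mir150 and Mir155.

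The strand of the reads shows which product was counted. All 2607 reads at Mir142b in pup 3 and all 2246 in pup 1 lay on the strand opposite to Mir142b, which is the strand of Mir142, so the count is one of miR-142a arms by position. With 0 reads on the strand of Mir142b itself, its share could still reach 0.115% in pup 3 and 0.134% in pup 1. Among the 460 genes that had at least 20 reads in total, 8 (1.74%) had all their reads on the opposite strand and 410 (89.1%) had none there. The other members were of the common kind. Mir451a had no read on the strand of Mir451b, which leaves room for 0.112% in pup 3 and 0.173% in pup 1, and Mir144, Mir223 and Mir155 had none on their opposite strands either. Mir150 had 0 opposite reads of 1685 in pup 3 and 2 of 1881 in pup 1, which a two-sided Fisher exact test did not separate (p = 0.501).

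Between the pups, Mir451a, Mir142b, Mir223, Mir150 and Mir155 were higher in pup 3 and Mir144 was lower, by an exact binomial test on counts scaled by TMM factors. These are 5 members higher and 1 lower of 6 tested. Over all 460 genes tested, 30.2% were called higher and 32.8% lower, 63% in all, so passing this test was common. The median log2 ratio of the members was 0.38, beside -0.02 over all genes tested. It was 0.41 for the 3 endothelial hairpins, 0.63 for the 10 of the neural check list and 0.08 for the 7 of the other blood-cell list. A median of this size was thus not particular to the members. Scaled by total counts, the median over all genes tested was -0.22 and that of the members 0.18, and of the members 3 stayed higher and 1 lower. That scaling also moved the calls over all genes to 98 higher and 206 lower, against 139 and 151 with TMM factors.

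With TMM factors Mir451a stood at 1.07 on the log2 scale (95% exact interval 0.98 to 1.16), or 2.10-fold higher in pup 3. Its adjusted p was 1.07e-130 by the exact binomial test with Benjamini-Hochberg adjustment over the 460 genes. Of the 310 genes whose mean level reached 10 CPM, 10% had a larger absolute log2 ratio, 24 (7.74%) were at least 2-fold higher in pup 3 and 12 (3.87%) at least 2-fold lower. Of the members, Mir451a alone passed 2-fold. With total counts its log2 ratio was 0.87, under the 2-fold mark but still past the exact test. Mir144 fell by 0.67 on the log2 scale in pup 3 (interval -0.96 to -0.39, adjusted exact p = 2.53e-06), to 0.628 of its level in pup 1. A larger absolute ratio was seen in 27.7% of the 310 genes. With total counts Mir144 had -0.87, as far from 0 as Mir451a.

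Of the leukocyte and microglial hairpins, Mir142b had a log2 ratio of 0.65 (0.57 to 0.73), or 1.57-fold higher in pup 3, and Mir223 one of 0.48 (0.36 to 0.61), or 1.40-fold higher. Larger absolute ratios were found in 29.0% of the 310 genes for Mir142b and in 39.4% for Mir223. Mir150 had 0.28 (0.18 to 0.37) and Mir155 had 0.27 (0.08 to 0.47), with adjusted exact p of 2.91e-08 and 0.00882. Of the 310 genes, 60.3% had a larger absolute ratio than Mir150 and 60.6% a larger one than Mir155. With total counts Mir150 had 0.08 (adjusted exact p = 0.166) and Mir155 had 0.07 (adjusted exact p = 0.554), and neither passed.

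**Figure D3:**
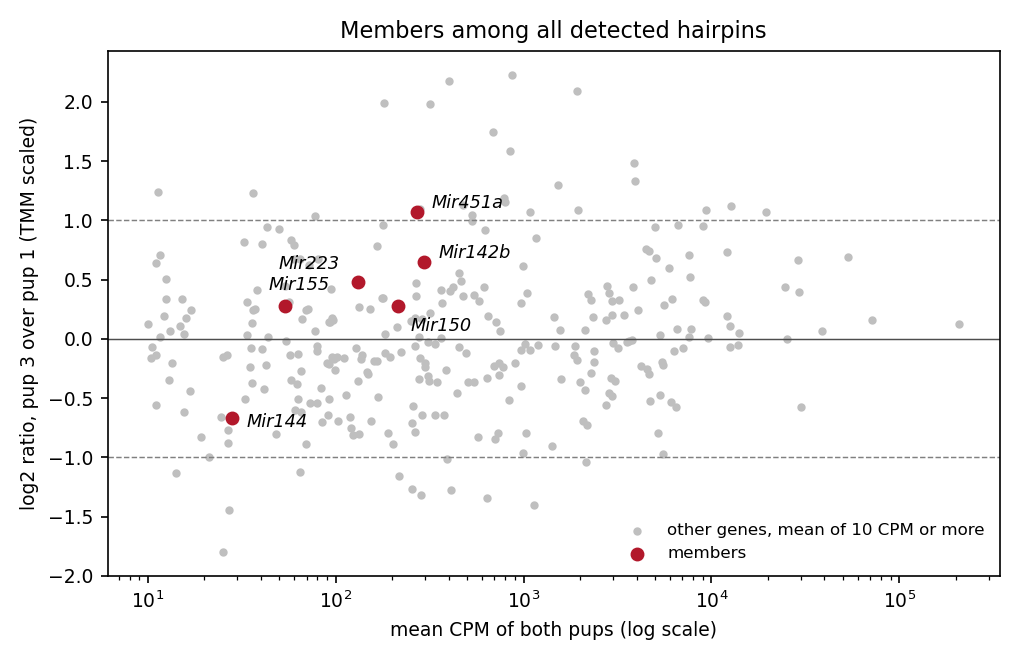
Log2 ratio of pup 3 over pup 1 with TMM scaling against mean CPM on a log scale, for the 6 members (named, large points) and the other genes whose mean reached 10 CPM (grey); dashed lines mark 2-fold. Mir451a lies just above the 2-fold line at 1.07, the other members lie inside the lines, and the grey points spread to both sides at every level.

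**Figure D4:**
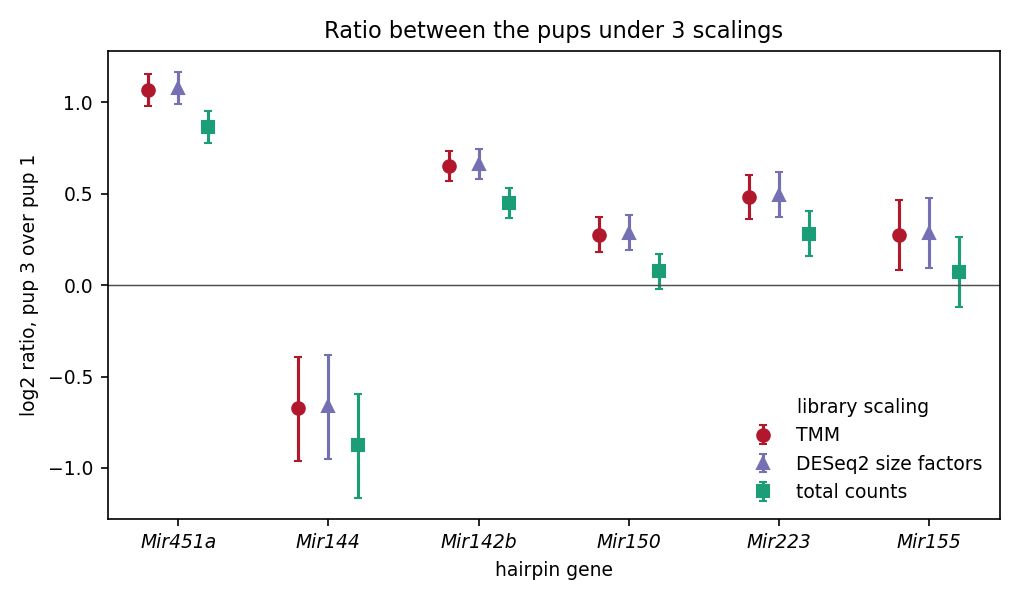
Log2 ratio of pup 3 over pup 1 for each member with TMM factors, DESeq2 size factors and total counts; bars are 95% exact binomial intervals of counting error. With total counts every ratio is lower, and the intervals of Mir150 and Mir155 cover 0.

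The opposite changes of Mir451a and Mir144 can be read without any library scaling, as reads of one per read of the other. There were 17.7 Mir451a reads for each Mir144 read in pup 3 (95% exact interval 15.02 to 20.97), against 5.29 in pup 1 (4.70 to 5.97). The mean was 11.5 ± 8.77 (SD, n = 2), and the ratio in pup 3 was 3.34 times that in pup 1 (two-sided Fisher exact test on the 4 counts, p = 3.24e-34). This sets the difference between these libraries against counting error only. Pairs of adjacent hairpins on the same strand, at most 10 kb apart and each reaching a mean of 10 CPM, were then set beside it, a description chosen after these values were seen. Among 96 such pairs, which can share a hairpin, the log2 ratio of neighbours differed between pups by a median of 0.47. For Mir144 and Mir451a the difference was 1.74, with no pair above it. Close below came Mir181a-2 and Mir181b-2 with 1.60 and Mir15b and Mir16-2 with 1.52. No interval was computed for these differences, so the first place is not separated from the next ones. Without pairs that hold a hairpin with a shared stretch, 69 pairs were left, with a median of 0.40, and the next difference was 1.51 for Mir496a and Mir377. The level itself was less unusual: in 29 of the 96 pairs the mean log2 ratio of neighbours was further from 0 than the 3.27 of Mir451a over Mir144. Mature sequences of Mir144 have a GC content of 30.4% and 30.0% and miR-451a one of 36.4%, and the part of base composition in this difference was not tested.

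**Figure D5:**
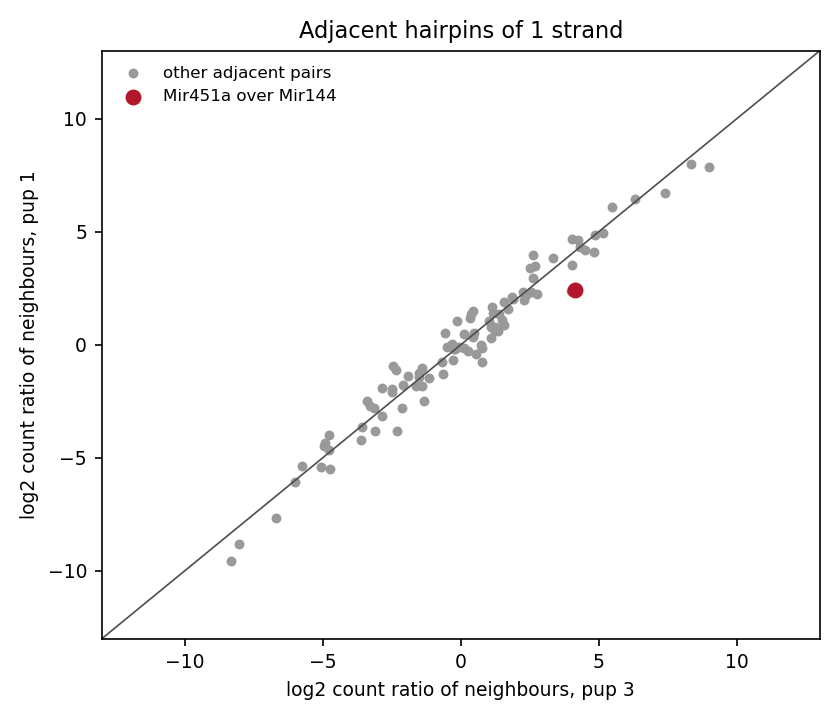
Log2 count ratio of adjacent hairpins of the same strand (the one further along the chromosome over the other) in pup 3 on the x axis and pup 1 on the y axis, for 96 pairs; the line marks equal ratios. Mir451a over Mir144, at 4.14 in pup 3 and 2.40 in pup 1, lies furthest from the line. Its difference of 1.74 stands beside 1.60 for the next pair.

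Within the leukocyte group the proportions were closer. There were 1.55 Mir142b reads per Mir150 read in pup 3 and 1.19 in pup 1, 2.36 per Mir223 read in pup 3 and 2.11 in pup 1, and 6.18 per Mir155 read in pup 3 and 4.76 in pup 1. The ratio in pup 3 was thus between 1.12 and 1.30 times that in pup 1 for these pairs, which were not tested.

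Other microRNAs of blood cells gave a mixed picture, with 7 genes of the list measured, 2 of them higher in pup 3, 1 lower and 4 not past the exact binomial test. The median log2 ratio of the 7 was 0.08. The erythroid Mir486, whose host gene Ank1 encodes a red-cell membrane protein, had 9.12 CPM in pup 3 and 11.7 CPM in pup 1 and did not pass (log2 ratio -0.16, interval -0.62 to 0.29). Mir146, which NF-kB signalling induces in myeloid cells, had 48.1 CPM in pup 3 and 78.5 CPM in pup 1, a log2 ratio of -0.51 (-0.69 to -0.32) that passed. Its hairpin and that of Mir146b have a shared stretch, so their counts are uncertain. Mir342 had 5356 CPM in pup 3 and 3648 CPM in pup 1, and Mir21a, which many cell types make, had 5245 CPM in pup 3 and 4270 CPM in pup 1. These passed as higher with log2 ratios of 0.75 and 0.50, far above the members in level. Mir146b, Mir147 and Mir511 stayed under 10 CPM in both pups.

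Among the microRNAs of the vessel wall, it was beside Mir126a that the blood-cell hairpins were scarce. Mir126a of endothelial cells stood at 36865 CPM in pup 3 and 40491 CPM in pup 1. The reads of Mir451a came to 0.9499% of those of Mir126a in pup 3 and 0.474% in pup 1, and those counted at Mir142b to 0.921% in pup 3 and 0.614% in pup 1. The log2 ratio of Mir126a was 0.06 with TMM factors and -0.14 with total counts, so its direction turned with the scaling. Mir221 and Mir222, of endothelial and other proliferating cells, had 458 and 391 CPM in pup 3, against 389 and 338 CPM in pup 1, close to the level of Mir451a in pup 3. Their log2 ratios were 0.44 and 0.41 with TMM factors and 0.24 and 0.21 with total counts. Both passed the exact binomial test as higher in pup 3 under either scaling.

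The genes closest to each member in level over the 2 pups were found by the distance in log2(CPM + 0.5). The nearest to Mir451a was Mirlet7a-1 with 366 CPM in pup 3 and 197 CPM in pup 1 (distance 0.08), whose hairpin has a shared stretch and an uncertain count, and the next was Mir142b (0.37). Mir144 was nearest to Mir8112 (0.14) and Mir302b (0.21), Mir142b to Mir148a (0.22) and Mir148b (0.27), and Mir150 to Mir592 (0.13) and Mir32 (0.28). Mir223 was nearest to Mir190a (0.16) and Mir669o (0.37), and Mir155 to Mir26a-2 (0.12) and Mir30c-2 (0.12). The hairpins of Mir8112, Mir302b, Mir190a, Mir669o, Mir26a-2 and Mir30c-2 have a shared stretch too, so their counts are also uncertain. With 2 samples this likeness describes the level and little else.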

How the data were processed

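Small RNA of 2 newborn forebrains (1 group) was sequenced. The deposited values are raw counts of reads per hairpin gene, made by the authors on mm10 with annotation M4, per the notes beside the files. Which aligner and counter were used, and how, is not stated there or in the labels. Column 2 (both strands) was used. It equals the sum of columns 3 and 4 in all 1973 genes, and these were read as the sense and the opposite strand from the values. The 4 tallies that name no gene stayed out of library sizes; 43.5% of reads in pup 3 and 43.0% in pup 1 were tallied as mapping to several places. Names and positions came from GENCODE M21 (GRCm38) by identifier, with 1894 matched, and sequences from RefSeq. RNAfold 2.7.2 predicted structures.

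Ratios used counts with 0.5 added and TMM factors of edgeR 4.0.16 (0.933 for pup 3, 1.07 for pup 1). Genes whose counts summed to at least 20 entered a two-sided exact binomial test, adjusted by Benjamini-Hochberg at 0.05 over all 460. No edgeR contrast can be fitted with 1 group. The test was run on simulated counts that held counting error only. That check left out variation between animals and says nothing about it. Named genes were the members, the listed genes whose mean reached 10 CPM, and the 2 genes nearest to each member. Alternatives were scaling by total counts or by DESeq2 1.42.0, other count minimums, other strand columns, CPM per nucleotide and each pup alone. The members and lists were chosen with earlier results of these data known. P-values set the difference between these libraries against assumed counting error and measure no spread between animals. Software was Python 3.11.15 (matplotlib 3.10.9, pandas 2.3.3, scipy 1.17.1, numpy 2.4.6) and R 4.3.3.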

Additional observations from a re-analysis of the deposited data

How the results depend on the processing

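Total counts in place of TMM factors lowered the log2 ratios by 0.20, so that 3 members rather than 5 were called higher; Mir150 had 0.076 and Mir155 had 0.074 and no longer passed. No member changed direction under any setting run, and DESeq2 size factors, count minimums of 1 and 100 and the strand columns ended no call of a measured member, except that Mir142b has no reads in the sense column. Per 1000000 of all reads, the mean levels were 110 for Mir451a, 11.3 for Mir144, 119 for Mir142b, 86.7 for Mir150, 53.1 for Mir223 and 21.7 for Mir155, since most reads were assigned to no hairpin gene. Per hairpin nucleotide, Mir142b took place 3 and Mir150 place 2 in the order of levels. That place of Mir142b rests on the length of its own hairpin and not on the shorter one of Mir142, where its reads lay. With the shorter length it would stand above Mir451a. In single pups Mir451a took place 1 to 3, Mir142b place 1 to 2 and Mir150 place 2 to 3. The Mir451a to Mir144 ratio ran from 5.29 to 17.7 over single pups and the summed share of the members from 0.0855% to 0.113%. No paired analysis was possible because the pups form 1 group. With 1 library a pup, and arms pooled in each count, neither the spread within an animal nor the arm of a hairpin can be read. The 152 reads of Mir144 in pup 3 were the fewest behind any member's value.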
